A study of Mus musculus with 12 samples.

Results

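The genes described here are those of the Janus kinases (JAKs) and of the signal transducers and activators of transcription (STATs) in Ba/F3 cells transformed by fusions of the ABL1 tyrosine kinase. The members were chosen by symbol: the kinase genes Jak1, Jak2, Jak3 and Tyk2 and the transcription factor genes Stat2, Stat3, Stat5a, Stat5b and Stat6. The 9 symbols were matched to Ensembl identifiers in the table of 55471 genes, and all 9 passed the filter on low counts that left 17197 genes for testing. Ba/F3 is an established mouse line, labelled pro-B, whose growth depends on interleukin-3 (IL-3). Total RNA was sequenced from 12 lines of these cells. The 4 SFPQ-ABL1 lines and the 4 BCR-ABL1 lines each expressed the fusion they are named after and grew without IL-3, and the 4 MSCV lines held the MSCV retrovirus with no fusion gene and grew in 0.5 ng/ml murine IL-3. The submitters describe the lines of a group as biologically independent and name no drug treatment. Against MSCV, the fusion and the absence of IL-3 change together and cannot be told apart, whereas SFPQ-ABL1 and BCR-ABL1 lines share the same medium.

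JAKs are tyrosine kinases held on the inner side of cytokine receptors. When a cytokine joins the receptor chains, the kinases phosphorylate each other and the receptor, STAT proteins dock through their SH2 domains, become phosphorylated, pair and move into the nucleus to bind DNA. The IL-3 receptor works through JAK2 and STAT5, the name for the products of Stat5a and Stat5b, and active ABL1 fusions are known to raise STAT5 phosphorylation without a cytokine. That activation is a change in protein, so the RNA levels given here are the supply of transcripts of the pathway and not its activity.

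The promoters of 3 members and of a STAT5 target are shown because Stat2, Stat5a and Stat5b carry the clearest differences between the fusions and Cish is the best known STAT5 target gene measured beside them. Each stretch runs 5′ to 3′ on the strand of the gene from 250 bases before to 50 bases after the RefSeq start (build GRCm38.p6, the assembly of mm10), and capitals mark matches to TTCNNNGAA, the core of a STAT site, or to GAAA followed by 2 bases of any kind and GAAA, the core of the element bound by STAT2 with IRF9 (here called the IRF9 motif). Both strands were searched, and TTCNNNGAA reads alike on each.
Stat2, chr10:128270248-128270547, plus strand: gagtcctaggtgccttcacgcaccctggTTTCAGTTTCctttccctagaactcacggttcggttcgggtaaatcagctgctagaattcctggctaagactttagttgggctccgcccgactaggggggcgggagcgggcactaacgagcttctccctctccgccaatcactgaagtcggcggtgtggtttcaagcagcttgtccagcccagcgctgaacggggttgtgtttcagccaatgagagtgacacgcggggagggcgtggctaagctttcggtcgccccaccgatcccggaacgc
Stat5a, chr11:100859406-100859705, plus strand: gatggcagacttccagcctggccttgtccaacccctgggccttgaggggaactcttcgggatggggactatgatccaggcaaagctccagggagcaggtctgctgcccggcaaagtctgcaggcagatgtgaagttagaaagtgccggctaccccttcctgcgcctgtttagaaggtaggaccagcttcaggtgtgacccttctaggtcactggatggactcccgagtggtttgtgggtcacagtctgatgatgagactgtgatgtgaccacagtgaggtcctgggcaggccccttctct
Stat5b, chr11:100850532-100850831, minus strand: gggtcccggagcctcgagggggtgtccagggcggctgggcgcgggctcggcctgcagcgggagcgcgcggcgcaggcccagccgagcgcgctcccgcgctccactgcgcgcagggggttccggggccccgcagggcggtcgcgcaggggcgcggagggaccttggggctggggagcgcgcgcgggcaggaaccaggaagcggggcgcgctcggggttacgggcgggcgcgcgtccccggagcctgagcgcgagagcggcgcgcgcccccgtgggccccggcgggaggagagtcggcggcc
Cish, chr9:107296409-107296708, plus strand: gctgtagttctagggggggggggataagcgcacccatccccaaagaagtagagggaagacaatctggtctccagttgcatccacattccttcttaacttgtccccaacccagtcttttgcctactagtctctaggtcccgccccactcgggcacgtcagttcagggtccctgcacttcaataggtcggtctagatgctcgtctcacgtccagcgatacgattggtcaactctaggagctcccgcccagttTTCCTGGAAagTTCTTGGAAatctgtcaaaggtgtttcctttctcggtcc

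The Stat2 promoter held 1 match to the IRF9 motif, on the minus strand and beginning at base -222, where 1 is the start base. None of the 11 promoters that RefSeq gives for the 9 members held TTCNNNGAA in this window, and Stat2 was the only member with the IRF9 motif. Of 32851 promoters of the same length, 8.30% held TTCNNNGAA and 3.44% held the IRF9 motif. Cish held 2 matches to TTCNNNGAA, at bases 1 and 12 counted from the start. Of the 8 STAT5 target genes with a promoter in the table, 2 held TTCNNNGAA, in 2 of their 11 promoters. G and C made up 82.7% of the Stat5b promoter shown, 57.7% of the Stat5a promoter shown and 59.3% of that of Stat2. RefSeq gives a further promoter for Stat5b, with 47.3% G and C, and for Stat5a, with 67.7%. Stat5b, Stat5a and Stat3 lie next to each other on chromosome 11 (mm10): Stat5b at 100780731 to 100850724 on the minus strand, Stat5a at 100859351 to 100885169 on the plus strand and Stat3 at 100885098 to 100939540 on the minus strand. Between Stat5b and Stat5a lie 8626 bases, and Stat5a and Stat3 share 72 bases. The other members lie apart from these, Jak1 on chromosome 4, Jak2 on 19, Jak3 on 8, Tyk2 on 9, and Stat2 and Stat6 on chromosome 10.

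Sequence shared with other genes limits how well some members can be told apart. Of all 50-base windows of the annotated Stat5b transcripts, 11% also occur in another gene, and all 608 of these occur in Stat5a. For Stat5a the share was 8.52%, for Tyk2 7.52% (most shared with the gene 1700084C06Rik) and for Jak3 7.21% (most shared with Insl3). It was 0 for Jak1, Jak2 and Stat6, 0.555% for Stat3 and 0.788% for Stat2. Windows were compared on both strands, so genes that overlap on the chromosome, as Stat5a and Stat3 do, share windows by position. Whether the shares of Tyk2 and Jak3 come from such overlap or from similar sequence was not tested. How reads with several matches and the strand were counted is not given in the sources used here, so the levels of Stat5a and Stat5b relative to each other are uncertain by such reads.

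Between 59355018 and 80616227 reads were assigned to genes in a library, and a level of 1 CPM (a read count scaled by library size and a TMM factor) equals 59.4 to 80.6 reads before the TMM factor is applied. MSCV line 2 differed in how its exon reads were placed: over 6048 genes, a median of 43.5% of a gene's exon counts fell in the exon at the 3′ end, against 29.2% to 35.5% in the other 11 lines. The label pro-B rests on few markers here. Of 14 early B-lineage genes, Cd79a and Cd79b were well expressed, but 10 were too low to test, with at most 9 reads in any line, among them Pax5, Ebf1, Rag1 and Blnk, and Il7r was at 0 in all 12 lines. The summed early B-lineage list stood at 85.3 to 98.7 CPM in SFPQ-ABL1 lines, 49.5 to 72.1 in BCR-ABL1 lines and 131 to 152.5 in MSCV lines. The granulocyte and monocyte list summed to 548.5 to 817 CPM with SFPQ-ABL1, 215 to 382 with BCR-ABL1 and 444 to 1123 with MSCV, and Ly6c2 was at 0 in all lines. Ms4a3 and Prtn3 made up most of this sum. Of the 7 genes tested, Prtn3, Lyz2 and Ms4a3 were lower and Itgam higher in BCR-ABL1 than in MSCV lines (log2 fold changes -2.14, -1.11, -1.36 and 2.57). In SFPQ-ABL1 against MSCV only Mpo was called, and it was higher (2.04). The mast cell and basophil list summed to 816 to 1379 CPM with SFPQ-ABL1, 1346 to 1592 with BCR-ABL1 and 1367 to 1664 with MSCV, and Prss34 was at 0 in all lines. Gata2, at 955 ± 268 CPM with SFPQ-ABL1, 1445 ± 117 with BCR-ABL1 and 1524 ± 133 with MSCV, made up most of this sum. Of the 5 genes tested, Fcer1g and Ms4a2 were lower and Cpa3 higher in BCR-ABL1 than in MSCV lines (log2 fold changes -1.51, -0.95 and 5.96). Cpa3 was uneven, at 0.876, 42.2, 4.75 and 4.35 CPM in BCR-ABL1 lines 1 to 4, against 0.0538 to 0.365 in MSCV lines. The T and NK cell list summed to 9.58 to 18.4 CPM with SFPQ-ABL1, 9.42 to 14.9 with BCR-ABL1 and 13.6 to 25.6 with MSCV, and Cd8a and Ncr1 were at 0 in all lines. Lck made up most of this sum with BCR-ABL1, at 11.4 ± 2.10 CPM against 8.34 ± 0.964 with MSCV, but was not called between these groups (adjusted p = 0.105). The other 3 genes tested, Cd3g, Cd3d and Tcf7, were lower with BCR-ABL1 than with MSCV (log2 fold changes -3.00, -1.07 and -4.17). The part of these genes in the results on the members was not tested.

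The level of each member, set on a scale that can be compared between genes, is given in CPM per kilobase of exons. Jak1, which serves most receptor families of the pathway, had the highest mean over the 12 lines, 44.0, above 92.0% of 12096 protein-coding genes. Jak2, the kinase of the IL-3 and erythropoietin receptors, followed with 32.9, then Stat5b with 25.5, Stat6, the IL-4 factor, with 23.6, and Stat3, the factor of the IL-6 family, with 17.9. The other members stood lower, Tyk2 at 10.7, Jak3 at 10.3, Stat5a at 9.002 and Stat2 at 8.31, the last above 55.9% of the genes. Within a group the spread was often as large as the step to the next gene: Jak1 and Jak2 were at 47.0 ± 3.02 and 45.2 ± 22.6 in MSCV lines (mean ± SD, n = 4), and Tyk2 and Jak3 were at 12.5 ± 1.30 and 11.3 ± 2.02.

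The 4 kinase genes together summed to 92.7 ± 9.59 CPM per kilobase in SFPQ-ABL1 lines, 85.2 ± 7.01 in BCR-ABL1 lines and 116 ± 20.1 in MSCV lines (mean ± SD, n = 4 each). The 5 STAT genes summed to 84.3 ± 4.54 in SFPQ-ABL1, 71.9 ± 3.86 in BCR-ABL1 and 96.5 ± 7.96 in MSCV lines, with no overlap between BCR-ABL1 and SFPQ-ABL1 lines. Stat5b was the highest of the 5 in all 4 SFPQ-ABL1 lines and all 4 MSCV lines, whereas Stat6 was the highest in BCR-ABL1 lines 2, 3 and 4. Stat6 made up 25.9% ± 2.93 of the STAT sum in SFPQ-ABL1 lines, 32.6% ± 3.88 in BCR-ABL1 lines and 26.2% ± 2.72 in MSCV lines. Stat5a supplied 27.7% ± 3.31 in SFPQ-ABL1, 24.6% ± 2.85 in BCR-ABL1 and 25.6% ± 1.96 in MSCV lines of the summed Stat5a and Stat5b level, and the lines of the 3 groups overlapped. Jak1 supplied 43.3% ± 5.77 of the kinase sum in SFPQ-ABL1 lines, 52.6% ± 4.26 in BCR-ABL1 lines and 41.5% ± 7.64 in MSCV lines.

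**Figure D1:**
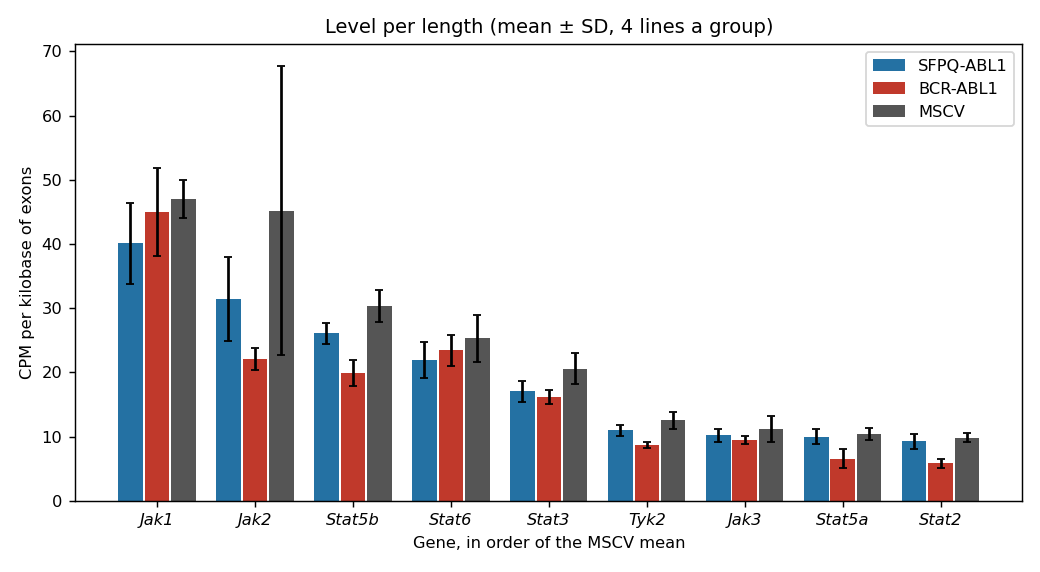
Level of each JAK and STAT gene in CPM per kilobase of exons (bars, mean; error bars, SD of 4 lines) in SFPQ-ABL1, BCR-ABL1 and MSCV lines, with genes in the order of their MSCV mean. Jak1 stands near 40 or above in every group, Stat5b stands at 26.1, 20.0 and 30.4 in the SFPQ-ABL1, BCR-ABL1 and MSCV lines, and the wide bar of Jak2 with MSCV comes from MSCV line 2.

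The comparison of BCR-ABL1 with MSCV lines asked how transcripts of the pathway differ between cells that the fusion keeps growing and cells that grow on IL-3. Of the 9 members, 6 fell and none rose: the kinase genes Jak2 and Tyk2 and the factor genes Stat2, Stat3, Stat5a and Stat5b (edgeR quasi-likelihood test, Benjamini-Hochberg adjusted over all genes). Jak1, Jak3 and Stat6 did not pass. Of all genes tested, 32.1% were called in this comparison and 16.3% were called lower. The median log2 fold change was -0.53 over the 9 members and -0.0081 over all genes. The lines of both groups did not overlap for these 6 members, which is the case for 31.6% of all genes, and 27.4% were both called and not overlapping. RNA was taken from whole cultures, so fewer cells with a transcript and less of it per cell cannot be told apart.

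Among the kinase genes, Jak2 had 113, 122, 105 and 104 CPM in BCR-ABL1 lines 1 to 4, against 151, 396, 189 and 174 CPM in MSCV lines 1 to 4. All BCR-ABL1 lines lay below all MSCV lines, and MSCV line 2 stood far above the rest. The log2 fold change was -1.03 ± 0.26 (SE; adjusted p = 0.00809), and without MSCV line 2 it was -0.62 (adjusted p = 0.00754; 0.000515 to 0.0251 over all alternatives). Tyk2, the partner kinase of interferon and IL-12 receptors, had 61.2, 62.4, 60.1 and 54.9 CPM in BCR-ABL1 lines, against 73.1, 93.8, 88.8 and 87.8 CPM in MSCV lines. The lowest MSCV line exceeded the highest BCR-ABL1 line, and the log2 fold change was -0.53 ± 0.09 (adjusted p = 0.00102). Jak1 ran from 269 to 371 CPM in BCR-ABL1 lines and from 315 to 358 CPM in MSCV lines, so the groups overlapped fully. Its log2 fold change was -0.06 with a 95% interval of -0.34 to 0.21 (adjusted p = 0.743). Jak3, the kinase that binds the common gamma chain of the IL-2 receptor family, ran from 47.4 to 54.7 CPM with BCR-ABL1 and from 45.0 to 69.4 CPM with MSCV. Its log2 fold change was -0.25 (95% interval -0.52 to 0.01, adjusted p = 0.137), and without MSCV line 2, its lowest MSCV line, it was -0.37 with an adjusted p of 0.0123 (0.0123 to 0.328 over all alternatives).

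Stat2, the STAT of the type I interferon response, showed the smallest p of the 9 genes. It had 40.6, 34.5, 29.7 and 33.1 CPM in BCR-ABL1 lines, against 54.0, 58.5, 57.1 and 63.7 CPM in MSCV lines. The groups were well apart, and the log2 fold change was -0.76 ± 0.12 (adjusted p = 0.000388). Stat5b had 120, 116, 112.5 and 94.2 CPM with BCR-ABL1, against 157, 156, 176 and 183 CPM with MSCV, with a log2 fold change of -0.61 ± 0.09 (adjusted p = 0.000452). Stat5a had 60.9, 41.7, 48.6 and 36.2 CPM with BCR-ABL1, against 80.8, 65.8, 72.8 and 78.3 CPM with MSCV, with a log2 fold change of -0.67 ± 0.14 (adjusted p = 0.00367). Both STAT5 genes were thus lower in every BCR-ABL1 line than in any MSCV line, and their sum was 26.5 ± 3.32 CPM per kilobase with BCR-ABL1 and 40.8 ± 2.89 with MSCV. Stat3 had 160, 154, 161.5 and 140 CPM with BCR-ABL1, against 182, 171.5, 209 and 221 CPM with MSCV. The gap between the groups was 161.5 against 171.5 CPM at its narrowest, the log2 fold change was -0.35 ± 0.10 (adjusted p = 0.0203), and the call was lost without BCR-ABL1 line 4 (adjusted p = 0.0624), MSCV line 3 (0.0562) or MSCV line 4 (0.0654), in a range of 0.0103 to 0.0654 over all alternatives. Stat6 ran from 89.3 to 115 CPM with BCR-ABL1 and from 88.3 to 125 CPM with MSCV, with a log2 fold change of -0.11 (95% interval -0.39 to 0.16, adjusted p = 0.522).

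**Figure D2:**
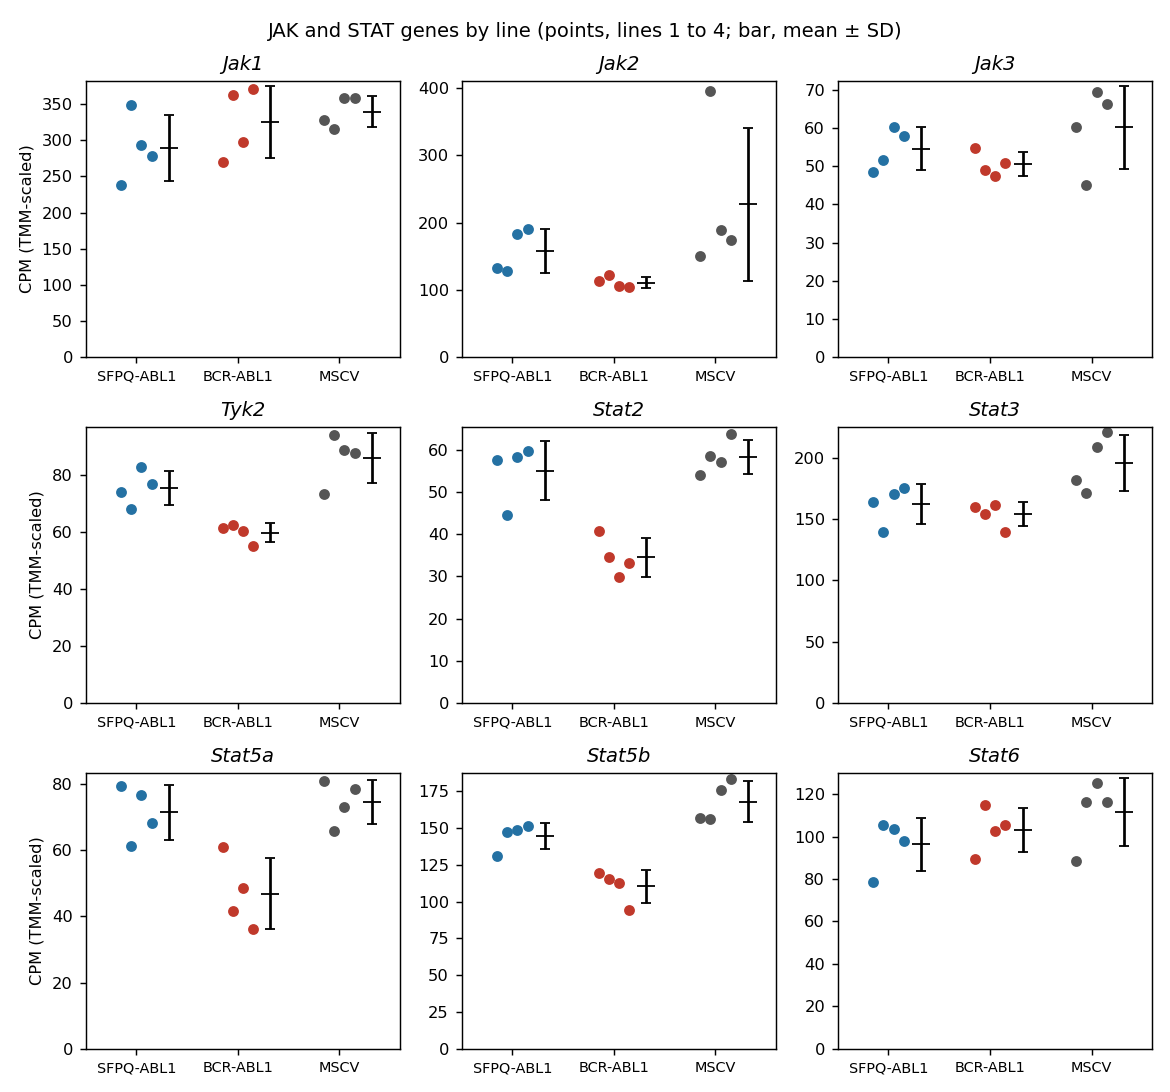
CPM (vertical axes, linear from 0) of each of the 9 genes in every line, with points for lines 1 to 4 of SFPQ-ABL1, BCR-ABL1 and MSCV from left to right and bars for mean ± SD. BCR-ABL1 lines lie below all MSCV lines for Jak2, Tyk2, Stat2, Stat3, Stat5a and Stat5b, and MSCV line 2 stands alone for Jak2 at 396 CPM.

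The comparison of SFPQ-ABL1 with MSCV lines asked the same of the other fusion, against the same 4 MSCV lines, so the folds of both comparisons share their controls. No member passed the test, where 1.79% of all genes did (0.814% higher and 0.977% lower). In edgeR 2 of the 9, Stat3 and Stat5b, were below 0.05 before adjustment, and DESeq2 and limma-voom called 0 members each. All 9 fold changes were below 0, with a median of -0.21 against -0.0019 over all genes. Only Stat5b had lines that did not overlap, which is the case for 11.2% of all genes, and for 1.68% together with a call. It had 131, 147.5, 149 and 151 CPM in SFPQ-ABL1 lines, all below the 156 to 183 CPM of MSCV lines, and its log2 fold change was -0.22 with a 95% interval of -0.42 to -0.01 (adjusted p = 0.238). Stat3 had 164, 139, 170 and 175.5 CPM in SFPQ-ABL1 lines, and line 4 lay within the MSCV range of 171.5 to 221 CPM. Its log2 fold change was -0.27 (95% interval -0.49 to -0.05, adjusted p = 0.179).

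For the other members the groups overlapped. Stat2 had 57.5, 44.6, 58.1 and 59.7 CPM in SFPQ-ABL1 lines, against 54.0 to 63.7 CPM in MSCV lines, with a log2 fold change of -0.08 (95% interval -0.33 to 0.16). Stat5a had 79.3, 61.3, 76.7 and 68.1 CPM in SFPQ-ABL1 lines, against 65.8 to 80.8 CPM in MSCV lines, with a log2 fold change of -0.06 (95% interval -0.37 to 0.25). SFPQ-ABL1 lines 1, 3 and 4 thus lay inside the MSCV range of Stat2 and line 2 below it. Jak2 had 132, 128, 183 and 190 CPM in SFPQ-ABL1 lines, and its log2 fold change of -0.52 (95% interval -1.07 to 0.03, adjusted p = 0.294) was -0.11 without MSCV line 2. The log2 fold changes of Jak1, Jak3, Tyk2 and Stat6 were -0.23, -0.14, -0.19 and -0.21, with adjusted p of 0.364, 0.580, 0.296 and 0.393, and their 95% intervals reached down to -0.51, -0.41, -0.39 and -0.48. These intervals do not show that the groups were alike.

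**Figure D3:**
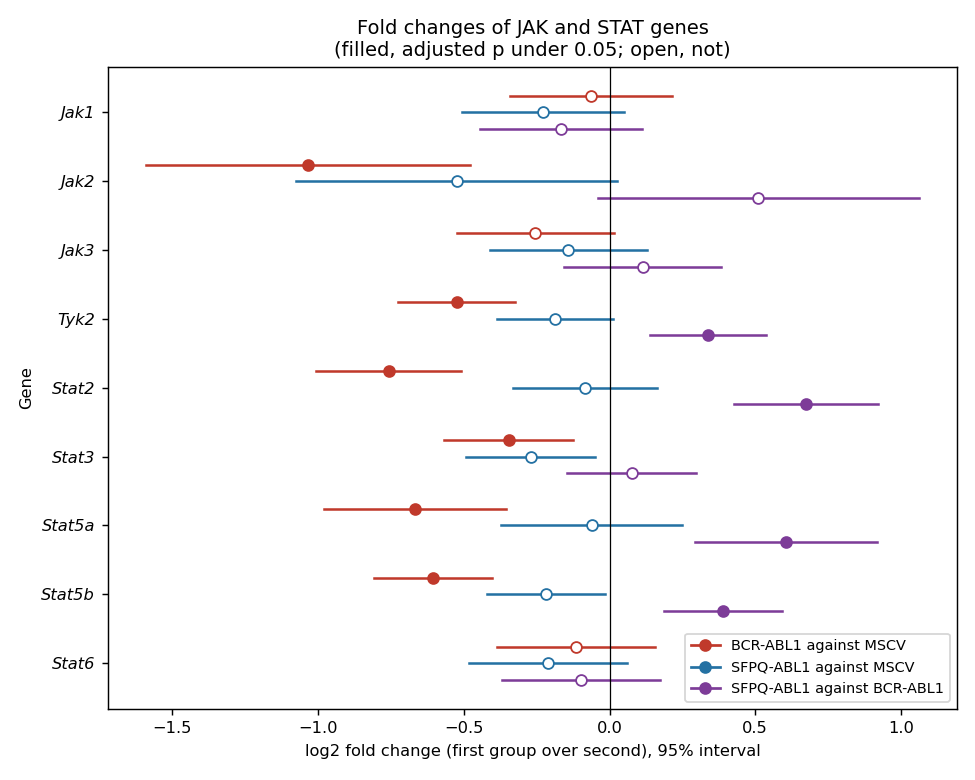
Log2 fold change (horizontal axis; points, with 95% intervals as lines) of each gene for each fusion against MSCV and for SFPQ-ABL1 against BCR-ABL1 lines, with filled points for adjusted p under 0.05. All 9 points lie below 0 in both comparisons with MSCV, and Tyk2, Stat2, Stat5a and Stat5b are filled above 0 between the fusions.

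The comparison of SFPQ-ABL1 with BCR-ABL1 lines, both grown without IL-3, tested the difference between the fusions itself. Tyk2, Stat2, Stat5a and Stat5b were higher with SFPQ-ABL1 and no member was lower, where 26.0% of all genes were called and 13.2% were called higher. The lines did not overlap for these 4 genes and for Jak2, which is the case for 27.9% of all genes, and 21.7% were both called and not overlapping. The median log2 fold change was 0.34 over the 9 members and 0.0058 over all genes, and 7 of the 9 were above 0.

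Stat2 differed most, with every SFPQ-ABL1 line (44.6 to 59.7 CPM) above every BCR-ABL1 line (29.7 to 40.6 CPM). It averaged 55.0 ± 6.99 CPM in SFPQ-ABL1 lines and 34.5 ± 4.55 CPM in BCR-ABL1 lines, a 1.59-fold difference (log2 fold change 0.67 ± 0.11 SE, adjusted p = 0.00128). Stat5a averaged 71.3 ± 8.22 CPM with SFPQ-ABL1 and 46.9 ± 10.7 CPM with BCR-ABL1, and its closest lines were SFPQ-ABL1 line 2 at 61.3 CPM and BCR-ABL1 line 1 at 60.9 CPM. Its log2 fold change was 0.61 ± 0.14 (adjusted p = 0.00853). Stat5b averaged 145 ± 9.07 CPM with SFPQ-ABL1 and 110.5 ± 11.2 CPM with BCR-ABL1, with a log2 fold change of 0.39 ± 0.09 (adjusted p = 0.00910). The sum of both STAT5 genes was 36.1 ± 1.31 CPM per kilobase in SFPQ-ABL1 lines and 26.5 ± 3.32 in BCR-ABL1 lines, and the lowest SFPQ-ABL1 line (34.8) exceeded the highest BCR-ABL1 line (30.1). Tyk2 averaged 75.4 ± 6.07 CPM with SFPQ-ABL1 and 59.7 ± 3.29 CPM with BCR-ABL1, with a log2 fold change of 0.34 ± 0.09 (adjusted p = 0.0175). This call was lost without BCR-ABL1 line 4 (adjusted p = 0.0523) or SFPQ-ABL1 line 3 (0.0588), in a range of 0.00731 to 0.0593 over all alternatives.

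Jak2 was higher in every SFPQ-ABL1 line (128 to 190 CPM) than in any BCR-ABL1 line (104 to 122 CPM), with a log2 fold change of 0.51 ± 0.26 (adjusted p = 0.159). The spread of this gene is shared over all 12 lines in the fit, and without MSCV line 2 the same fold change had an adjusted p of 0.0153 (0.0153 to 0.317 over all alternatives). Stat3, Stat6, Jak1 and Jak3 had log2 fold changes of 0.08, -0.10, -0.17 and 0.11, with adjusted p of 0.621, 0.601, 0.365 and 0.535. Their 95% intervals ran from -0.15 to 0.30, from -0.37 to 0.17, from -0.44 to 0.11 and from -0.16 to 0.38, so a difference beyond 0.44 in either direction on the log2 scale lay outside all of these.

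The value of Jak2 in MSCV line 2 was seen along the gene (chromosome 19, 29251828 to 29313080, plus strand). In exon CPM, exon counts scaled by the library's gene counts, this line was the highest of the 4 MSCV lines in 28 of the 29 annotated exons, some of which overlap, and the highest of all 12 lines in 19. The exception was the exon at 29275002 to 29275119, with 0.198 in MSCV line 2 and up to 0.327 in the others. The overlapping exons that start at 29251828 and 29251839 had 0.0132 in MSCV line 2 and 0 in the other MSCV lines, so their place in this count rests on very few reads. The exon at 29252437 to 29252519, within the first kilobase of the gene, had 0.291 in MSCV line 2 against 0.0151 to 0.0393 in the other MSCV lines. The ratio to the highest of them was 7.40, but the levels in those lines stand for only a few reads. The last exon, 29311741 to 29313080, had 7.56 against 2.65 to 3.27, a ratio of 2.31. The exons of Jak2 outside the last held 1000 counts in MSCV line 2 and 398 to 582 in the other MSCV lines, and the last held 572 and 175 to 250. Outside the last exon, reads in overlapping exons can enter these counts more than once. The excess was therefore present both in the last exon and outside it, in the line whose exon reads lay most towards the 3′ end. The genes on either side, named after their values were seen, did not stand out in this line: Rcl1 was at 37.5 CPM and at 29.1 to 54.6 in the other MSCV lines, and Insl6 at 1.44 and at 1.28 to 1.53.

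**Figure D4:**
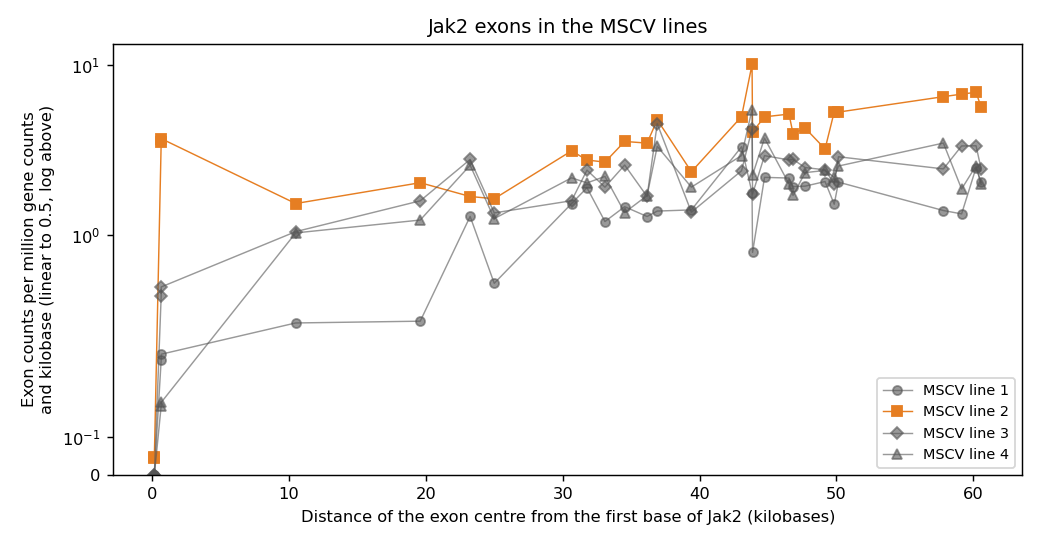
Exon CPM of Jak2 per kilobase in MSCV lines 1 to 4 (vertical axis linear up to 0.5 and logarithmic above) against the distance of each exon's centre from the first base of the gene. MSCV line 2 (orange squares) lies above the other MSCV lines in 28 of 29 exons.

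Exon usage, the share of a gene's reads on each exon, was tested in all 9 members with 8 to 36 exons each. No member was called in any comparison, where 0.192% of 9875 genes were called in BCR-ABL1 against MSCV, 0.0608% in SFPQ-ABL1 against MSCV and 0.132% in SFPQ-ABL1 against BCR-ABL1 (edgeR diffSpliceDGE, Simes p per gene, Benjamini-Hochberg adjusted). Before adjustment 2 members were below 0.05, both in BCR-ABL1 against MSCV: Stat5a with 8 exons (adjusted p = 0.954) and Stat5b with 16 exons (adjusted p = 1). The exon table held few of the reads. Summed over the exons of Jak2, some of which overlap and count the same reads again, there were between 354 and 1885 counts per line. The size of a shift in exon use that the test could have called at this depth was not tested.

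Across the 12 lines, Tyk2, Stat2, Stat5a and Stat5b varied together, with Pearson correlations of log2 CPM between 0.77 and 0.90 for the 6 pairs. Jak2 had its highest correlation with Tyk2 (r = 0.87). Jak1 stood apart from these, with r between -0.40 and 0.25 to every member except Stat6, where r was 0.77. These are descriptions over 12 libraries that share the differences between groups and the scaling of each library. The protein-coding genes most like each member, among 9193 with a mean of at least 5 CPM, were Fam107b, Zmynd8 and Ankrd13a for Stat2 (r from 0.98 to 0.99), Cryl1, Cd99l2 and Ptpn21 for Stat5b (0.98 each), Plekhg5, Mblac2 and Tmc6 for Stat5a (0.96 to 0.97) and Suox, Gstt3 and Cep19 for Tyk2 (0.97 each). For Jak2 they were Sdccag8, Oas1a and Parp3 (0.91 to 0.92), for Stat3 Adssl1, Zc4h2 and Elf4 (0.92 to 0.93), for Stat6 Pgm1, Zbtb8b and Tgfbr2 (0.91 to 0.92), for Jak3 Ncoa2, Tfdp2 and Sema4d (0.90 to 0.91) and for Jak1 Hk1, Dusp5 and Angpt1 (0.89 to 0.90).

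The genes around the members in the pathway moved in more than a single direction. The list counts stand beside 15.8% of all genes called higher and 16.3% lower in BCR-ABL1 against MSCV, 0.814% and 0.977% in SFPQ-ABL1 against MSCV, and 13.2% and 12.8% between the fusions. Of 18 inhibitor genes, all tested, among which Ptpn11 and Ptprc also have activating roles, 7 were higher and 2 lower in BCR-ABL1 than in MSCV lines (median log2 fold change 0.15, against -0.0081 over all genes). Cish, which blocks STAT5 docking on receptors, had 163, 203.5, 260 and 238 CPM in BCR-ABL1 lines, against 36.9, 24.4, 31.9 and 30.9 CPM in MSCV lines (log2 fold change 2.80 ± 0.31, adjusted p = 5.03e-05). Every BCR-ABL1 line was far above every MSCV line, while both STAT5 genes were lower there. Ptpn6, which encodes the phosphatase SHP-1 that removes phosphates from JAKs and receptors, had 134.4, 101, 134.1 and 92.8 CPM in BCR-ABL1 lines, against 342, 544.5, 398 and 373 CPM in MSCV lines (log2 fold change -1.84 ± 0.20, adjusted p = 4.64e-05). Sh2b3, an adaptor that restrains JAK2, was at 66.2 ± 9.81 CPM with BCR-ABL1 and 40.1 ± 5.19 with MSCV (adjusted p = 0.00061), and Socs5 was at 60.5 ± 8.30 with BCR-ABL1 and 41.5 ± 4.64 with MSCV (adjusted p = 0.00212). In SFPQ-ABL1 against MSCV 2 inhibitors rose (median over the list 0.05), Cish (178 ± 84.5 CPM with SFPQ-ABL1, 31.0 ± 5.14 with MSCV, adjusted p = 0.00640) and Socs1, which binds JAKs directly (18.8 ± 6.87 CPM with SFPQ-ABL1, 5.60 ± 2.41 with MSCV, adjusted p = 0.0266). The call of Socs1 was lost, leaving a count of 1, without SFPQ-ABL1 line 1, 3 or 4 or MSCV line 2, 3 or 4, and was lost in the fit of 8 libraries. Socs1 was also higher in BCR-ABL1 than in MSCV lines (14.7 ± 4.34 CPM with BCR-ABL1, log2 fold change 1.39, adjusted p = 0.00643). Between the fusions it did not pass (log2 fold change 0.36, adjusted p = 0.445). In SFPQ-ABL1 against BCR-ABL1 Ptpn6 was higher, at 455, 309, 354 and 256 CPM in SFPQ-ABL1 lines with no overlap (log2 fold change 1.57 ± 0.20, adjusted p = 0.00023). Sh2b3, Socs5 and Ptpn2, another phosphatase of JAKs and STATs, were lower there, a count of 3 that was 5 without BCR-ABL1 line 1 and 1 without BCR-ABL1 line 3 or 4. Socs5 lost its call without line 3 or 4 of BCR-ABL1 and with summed exon counts, and Ptpn2 without line 2, 3 or 4 of BCR-ABL1 or line 1 or 3 of SFPQ-ABL1 and in the fit of 8 libraries. Without SFPQ-ABL1 line 2, 2 inhibitors were higher. The median over the list was -0.12.

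Of 30 receptor genes of the pathway 20 were tested, with median log2 fold changes of -0.03 in BCR-ABL1 against MSCV, -0.20 in SFPQ-ABL1 against MSCV and -0.23 between the fusions. In BCR-ABL1 against MSCV lines 7 were higher and 5 lower, and the count of lower genes was 3 without BCR-ABL1 line 1 or MSCV line 1. Il3ra, the IL-3 receptor alpha chain, had 46.6, 38.1, 46.9 and 46.3 CPM in BCR-ABL1 lines, against 79.2, 92.2, 85.6 and 84.1 CPM in MSCV lines (log2 fold change -0.94 ± 0.09, adjusted p = 2.15e-05). In SFPQ-ABL1 lines it was at 52.8, 57.3, 61.2 and 58.7 CPM, lower than with MSCV (log2 fold change -0.57 ± 0.09, adjusted p = 0.0115, not called with summed exon counts) and higher than with BCR-ABL1 (0.37 ± 0.09, adjusted p = 0.00838). The 3 groups did not overlap for this gene. Epor, the erythropoietin receptor gene, fell with BCR-ABL1 to 17.5 ± 5.28 CPM, against 35.6 ± 4.89 with MSCV (adjusted p = 0.00197). Il15ra rose to 17.5 ± 2.85 CPM with BCR-ABL1, against 10.1 ± 1.81 with MSCV (adjusted p = 0.00384). Il2ra, the IL-2 receptor alpha chain and a STAT5 target, had 63.4, 433, 173 and 168.5 CPM in BCR-ABL1 lines, against 5.51 to 17.7 CPM in MSCV lines (log2 fold change 4.27 ± 0.87, adjusted p = 0.00261; 3.64 without BCR-ABL1 line 2). Its SFPQ-ABL1 lines ran from 9.21 to 270 CPM and overlapped the MSCV lines. In SFPQ-ABL1 against MSCV 0 receptor genes were higher and 2 lower, Il3ra and the interferon receptor gene Ifnar2 (15.5 ± 1.46 CPM with SFPQ-ABL1, 21.3 ± 1.49 with MSCV, adjusted p = 0.0432). The call of Ifnar2 was lost without BCR-ABL1 line 1 or 3, SFPQ-ABL1 line 1, 3 or 4, or any MSCV line, and also without TMM factors, without the filter, in the fit of 8 libraries and with summed exon counts, so that it held under 7 of 20 alternatives. Between the fusions 3 receptor genes were higher and 6 lower in SFPQ-ABL1 than in BCR-ABL1 lines. Ifnar2 had the smallest p, at 26.4 ± 2.31 CPM with BCR-ABL1 and lower with SFPQ-ABL1 (log2 fold change -0.77 ± 0.10, adjusted p = 0.000302). Its lines did not overlap, and this call held under 20 of 20 alternatives. Il12rb1 was at 5.21 ± 1.94 CPM with SFPQ-ABL1 and 10.1 ± 1.03 with BCR-ABL1 (adjusted p = 0.00664). Ifngr1, a chain of the interferon gamma receptor, was at 64.9 ± 26.9 CPM with SFPQ-ABL1 and 23.5 ± 1.53 with BCR-ABL1 (adjusted p = 0.00330), and its partner Ifngr2 was at 19.1 ± 2.75 with SFPQ-ABL1 and 37.0 ± 8.80 with BCR-ABL1 (adjusted p = 0.00222).

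Of 12 STAT5 target genes, all tested, 7 were higher and 0 lower with BCR-ABL1 than with MSCV, with a median log2 fold change of 1.29. Pim2, a survival kinase gene, had 118, 288, 217 and 201 CPM in BCR-ABL1 lines, against 13.8, 17.8, 13.8 and 14.2 CPM in MSCV lines (adjusted p = 3.94e-05). The cyclin gene Ccnd2 and the survival gene Bcl2l1, at 351.2 ± 15.02 and 118 ± 18.2 CPM with BCR-ABL1 and 148 ± 14.6 and 39.9 ± 6.22 CPM with MSCV, rose as well (adjusted p = 1.29e-05 and 1.56e-05). In SFPQ-ABL1 against MSCV 3 of the 12 rose (Cish, Socs1 and Pim2), with a median log2 fold change of 0.34, and 1 of the 12 without SFPQ-ABL1 line 3 or 4 or MSCV line 2, 3 or 4. Pim2 (adjusted p = 0.0432) lost its call there on leaving out any library other than BCR-ABL1 lines 1 and 2 or SFPQ-ABL1 line 1, and with limma-voom, the fit of 8 libraries and summed exon counts, so that it held under 8 of 20 alternatives. In SFPQ-ABL1 against BCR-ABL1 lines 3 of the 12 fell and 0 rose, where 26% of all genes were called, with a median of -0.36. Pim2 had 16.4, 49.4, 43.2 and 77.5 CPM in SFPQ-ABL1 lines, all below the BCR-ABL1 lines (log2 fold change -2.14 ± 0.37, adjusted p = 0.00137). Ccnd2 had 163 ± 19.6 CPM and Bcl2l1 52.3 ± 5.05 CPM with SFPQ-ABL1 (log2 fold changes -1.10 ± 0.10 and -1.18 ± 0.13 against BCR-ABL1, adjusted p = 4.8e-05 and 0.00014). These 3 targets went in the opposite direction to Stat5a and Stat5b in the same comparison. Cish did not pass between the fusions (log2 fold change -0.28, adjusted p = 0.502). Socs3 and Socs1 did not pass either, with log2 fold changes above 0 (0.68 and 0.36, adjusted p = 0.108 and 0.445). With SFPQ-ABL1 line 2 left out, 1 of the targets was higher.

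Of 12 STAT3 target genes 8 were tested, and 4 were higher and 0 lower with BCR-ABL1 than with MSCV (median log2 fold change 0.22). Fos had 25.6, 16.03, 40.2 and 36.1 CPM in BCR-ABL1 lines, against 9.93, 3.91, 5.73 and 3.38 CPM in MSCV lines (adjusted p = 0.00363), and Il4ra, Hif1a and Junb were the others. The call of Junb was lost on leaving out any library other than BCR-ABL1 line 1 or SFPQ-ABL1 lines 1 and 2. In SFPQ-ABL1 against MSCV Junb fell, at 20.3 ± 6.37 CPM with SFPQ-ABL1 and 46.1 ± 6.93 CPM with MSCV (adjusted p = 0.0315), a call lost without SFPQ-ABL1 line 3 or 4 or MSCV line 2, 3 or 4, and in the fit of 8 libraries. Fos and Junb were lower with SFPQ-ABL1 than with BCR-ABL1 (log2 fold changes -3.18 ± 0.53 and -1.85 ± 0.24, adjusted p = 0.00114 and 0.00029), while Stat3 itself had 162 ± 15.98 CPM with SFPQ-ABL1 and 154 ± 10.02 CPM with BCR-ABL1. The count of higher STAT3 targets between the fusions, 0 with all libraries, was 1 without BCR-ABL1 line 1 and 2 without SFPQ-ABL1 line 2. Both genes are also induced by growth factor kinases other than JAKs. Of 9 STAT6 targets 2 were tested, Il4ra and Xbp1. Il4ra was at 64.8 ± 23.5 CPM with SFPQ-ABL1, 102 ± 21.4 with BCR-ABL1 and 52.0 ± 7.23 with MSCV and rose with BCR-ABL1 (adjusted p = 0.00757), where Stat6 did not pass the test. Xbp1 was at 573 ± 189 CPM with SFPQ-ABL1, 456 ± 67.5 with BCR-ABL1 and 304 ± 26.1 with MSCV and rose in both against MSCV (adjusted p = 0.0410 and 0.0379). The call with SFPQ-ABL1 was lost without any of BCR-ABL1 lines 2 and 3, SFPQ-ABL1 lines 1, 3 and 4 and the MSCV lines, with limma-voom and in the fit of 8 libraries. That with BCR-ABL1 was lost without BCR-ABL1 line 2, 3 or 4, SFPQ-ABL1 line 3 or MSCV line 2, 3 or 4.

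Of 20 genes driven by STAT2 with IRF9 in the interferon response, 14 were tested. Their median log2 fold changes were 0.40 in BCR-ABL1 against MSCV, -0.36 in SFPQ-ABL1 against MSCV and -0.42 between the fusions. The first median counts Oasl1, Oasl2 and Ifit1 (1.67, 0.80 and 2.21, none called), at only 0.246, 0.300 and 0.404 CPM with BCR-ABL1. The whole list summed to 103 to 136 CPM in SFPQ-ABL1 lines, 138 to 164 in BCR-ABL1 lines and 141.5 to 167 in MSCV lines, so BCR-ABL1 and MSCV lines overlapped. Irf9, the partner of STAT2, had 14.1, 12.8, 12.2 and 15.9 CPM in BCR-ABL1 lines, against 17.5, 20.6, 18.1 and 20.0 CPM in MSCV lines, and fell with Stat2 (log2 fold change -0.47 ± 0.12, adjusted p = 0.00739). Irf7 and Oas1a fell as well (log2 fold changes -0.86 ± 0.19 and -0.74 ± 0.13, adjusted p = 0.00402 and 0.00105). Oas2 and Mx1 rose, Mx1 at 1.36 ± 1.49 CPM with BCR-ABL1 and 0.151 ± 0.0952 with MSCV (log2 fold change 3.15, and 2.02 without BCR-ABL1 line 4). The list thus counted 3 lower and 2 higher of 14, where 32.1% of all genes were called, and the count of higher genes was 1 without line 2 or 4 of BCR-ABL1, 6 without BCR-ABL1 line 1, and 4 or 5 without any of SFPQ-ABL1 lines 1 to 4. Between the fusions Oas2, Oas3, Bst2 and Mx1 were lower in SFPQ-ABL1 than in BCR-ABL1 lines, while Stat2 was higher: Oas3 was at 4.14 ± 1.52 CPM with SFPQ-ABL1 and 12.9 ± 2.28 with BCR-ABL1, and Bst2 at 31.6 ± 5.88 with SFPQ-ABL1 and 51.0 ± 11.01 with BCR-ABL1 (adjusted p = 0.00117 and 0.00974). The lines of Bst2 overlapped, and its call was lost with summed exon counts. Oas1a and Ifit2 were higher (adjusted p = 0.0338 and 0.0281), a count of 2 that was 1 when line 1 or 2 of BCR-ABL1 or line 1 of SFPQ-ABL1 was left out, and 0 without line 3 of either fusion or line 4 of SFPQ-ABL1. In SFPQ-ABL1 against MSCV Irf7 was the gene that fell (5.05 ± 0.729 CPM with SFPQ-ABL1, 9.85 ± 1.95 with MSCV, adjusted p = 0.0295), a call lost without SFPQ-ABL1 line 1, 3 or 4 or MSCV line 2, 3 or 4 and with summed exon counts, while 2 genes were lower without SFPQ-ABL1 line 2 or MSCV line 1.

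**Figure D5:**
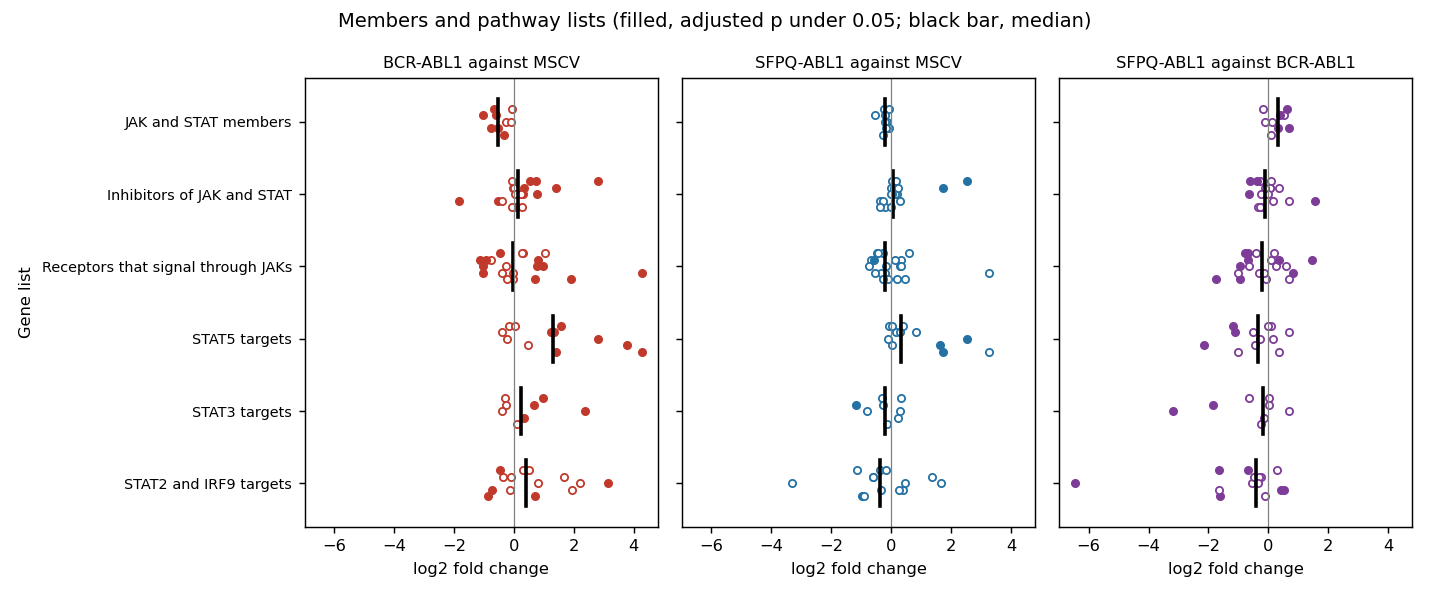
Log2 fold change (horizontal axes) of the 9 members and of each tested gene of 5 pathway lists for each fusion against MSCV and for SFPQ-ABL1 against BCR-ABL1 lines, with filled points for adjusted p under 0.05 and black bars for medians. In BCR-ABL1 against MSCV the members lie below 0 with a median of -0.53 and the STAT5 targets have a median of 1.29.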

How the data were processed

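RNA sequencing of 12 Ba/F3 lines was used. The authors deposited raw counts for genes and for exons with Ensembl identifiers, which the submitters' processing notes tie to Subread, featureCounts and mm10. The sources used here do not state versions, annotation release, strand use or how multiply matching reads were counted. Symbols, coordinates and exon lengths came from GENCODE M21 (mm10), which held 55230 of 55471 gene identifiers.

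These counts went into edgeR 4.0.16 (R 4.3.3): filterByExpr, TMM factors, glmQLFit over every library with no term but group, and two-sided glmQLFTest, Benjamini-Hochberg adjusted over 17197 genes and called under 0.05. Exon counts were tested with diffSpliceDGE. Gene and exon steps were also run on data simulated from the fitted levels, with the outcome not given here. Alternatives were other scalings, no filter, DESeq2 1.42.0, limma-voom (limma 3.58.1), the 8 libraries compared, the replicate number as a block, summed exon counts and leaving out each library. Replicate pairs differed by 33.1 to 182 chi-square units per degree of freedom, so none was a repeat within sampling noise.

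Members, gene lists and tests were chosen with earlier results of these data known. Named genes were the 9 members, the pathway genes with the smallest adjusted p per list and comparison, and the 3 genes most like each member. Rcl1, Insl6, marker genes given with values, and called genes that complete a count of 5 or fewer or pair with a named gene, were chosen after their values were seen. Promoter sequences came from RefSeq (GRCm38.p6).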

Additional observations from a re-analysis of the deposited data

Results flagged for a closer look

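In 3 of 42 sets of 4 lines examined, a line stood apart from the other 3 of its group by the gap between neighbouring values. The sets held the CPM of each member, sums and shares of the same members, and the median share of exon counts at the 3′ end. Chance alone flags about 1 in 20 such sets, but sets built from the same members are not independent. Jak2 was at 396 CPM in MSCV line 2 and at 151 to 189 CPM in the other MSCV lines. Stat2 was at 44.6 CPM in SFPQ-ABL1 line 2 and at 57.5 to 59.7 CPM in the other SFPQ-ABL1 lines. Stat5a supplied 28.5% of the summed Stat5a and Stat5b level in MSCV line 1 and 24.3% to 24.9% in the other MSCV lines.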

How the results depend on the processing

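Over the 9 members, 3 comparisons and 20 alternatives, 529 of 540 values kept their direction and their side of the threshold. Jak1 in BCR-ABL1 against MSCV ran from -0.13 to 0.011 when a library was left out, the highest without BCR-ABL1 replicate 1 (adjusted p = 0.958; 0.506 to 0.958 over its alternatives). The calls lost were those of Stat3 and Tyk2 given above, and, with summed exon counts, Tyk2 (0.37, adjusted p = 0.0593) and Stat5a (0.52, adjusted p = 0.0752; 0.0013 to 0.0752 over its alternatives) between the fusions, where 2 members were then called. Leaving out a library gave 5 to 7 members called in BCR-ABL1 against MSCV, 3 to 5 between the fusions and 0 in SFPQ-ABL1 against MSCV. The 8 libraries of the fusions alone called 5. Over all genes, SFPQ-ABL1 against MSCV gave 308 calls, and 1098 with DESeq2, 110 in a fit of 8 libraries, 726 with the replicate block, 157 with summed exon counts and 33 to 467 when a library was left out. The counts of the others were 4474 to 5645 for BCR-ABL1 against MSCV and 3161 to 5026 between the fusions when a library was left out, and 2618 between the fusions with summed exon counts. Without TMM factors the share of calls that were higher was 64.8%, against 45.5%, in SFPQ-ABL1 against MSCV, and 61.9%, against 50.7%, between the fusions, with the members' calls as before. Genes called for exon usage numbered 14 to 31 in BCR-ABL1 against MSCV and 5 to 22 between the fusions when a library was left out. The causes were not tested. The replicate numbers were not taken to pair the lines in the main fit. The submitters describe the lines of a group as biologically independent, which does not say whether same-numbered lines of different groups share a batch. Deviations of same-numbered lines correlated by -0.0063 to 0.385. Differently numbered lines were not compared in this way, so whether the numbers mark a shared batch was not tested. With the replicate numbers as a block, 6307 genes were called in BCR-ABL1 against MSCV, where the main fit called 5522. Between the fusions the block fit called 5336, where the main fit called 4471. It called 6 members in BCR-ABL1 against MSCV, 0 in SFPQ-ABL1 against MSCV and 4 between the fusions. Of 45 calls of pathway genes tried under these alternatives, chosen after seeing the data, 33 held under every alternative that gave a value and 0 changed direction.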
